A study of Mus musculus with 15 samples.

Results

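The 10 myokine genes, which encode exercise-released factors or are commonly listed with them, are Il6, Il15, Fndc5, Fgf21, Metrnl, Bdnf, Lif, Musk, Apln and Gdf15. They were taken by symbol from the 55450 genes counted in the gastrocnemius of 15 aged female C57BL/6JN mice (more than 17 months old), and all 10 were found. Low frailty marked mice (at most 1 positive frailty marker) and High frailty marked mice (at least 2) either stayed cage sedentary (Control) or did 2 bouts of downhill running (Run) on a treadmill at a 22° decline and 13 m/min, and muscle was taken 24 h after the last bout. This gave 4 Low Control mice (D8, D9, D11 and D98), 4 Low Run mice (D57, D61, D66 and D68), 3 High Control mice (D23, D25 and D67) and 4 High Run mice (D49, D52, D53 and D62). Values are listed in that order of mice throughout. No allele or agent separates the groups, frailty was assigned from cut-offs within this cohort, and running was at a single dose and sampled at a single time, so an earlier change would not be seen. Each library is bulk polyA RNA of whole muscle, in which fewer cells of a type and less RNA per cell cannot be told apart.

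Myokines are proteins that muscle fibres release, acting within the muscle or through the blood on fat, liver, bone and brain. IL-6 and LIF signal through the shared receptor subunit gp130 to STAT3, FGF21 and GDF15 are induced by mitochondrial and amino acid stress through the integrated stress response, and FNDC5 is cleaved to release irisin. Musk stands apart in this list: it encodes a receptor tyrosine kinase anchored in the postsynaptic membrane of the neuromuscular junction, not a secreted protein.

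Libraries held 19395125 to 30699216 counts, and myofibre markers stood at a summed 104000 CPM (counts of a gene per 1e6 counts of its library, scaled by TMM) or more in every mouse, as the gastrocnemius label requires. On the first principal component, which carried 27.9% of the variance, Low Control mouse D9 (90.3) and High Run mouse D62 (58.1) stood apart from the other 13 mice (-27.8 to 19.7). For genes and lists named with an unadjusted p under 0.05, values without these libraries are given where that p was lost or the count shifted. The exceptions are the Il6st interaction and Klb, for which only the count of their list is given. Of the 10 genes, 8 passed the filter on low counts, which kept 16920 genes in all. Fgf21 (1 to 14 counts per mouse) and Gdf15 (0 to 12) did not pass, and Il6 (0 to 30) and Lif (5 to 26) passed with few counts.

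Levels of different genes were compared per kilobase of exon. Fndc5 led at a mean of 35.1 CPM per kilobase (range 20.4 to 53.7), above 93.1% of the genes that passed the filter. Il15 (6.22), Metrnl (3.81) and Musk (3.13) followed, and the step from Fndc5 to Il15 held in 15 of 15 mice and that from Il15 to Metrnl in 15 of 15. Metrnl exceeded Musk in 12 of 15 mice, so their order was not uniform. A gap of about an order of magnitude separated these 4 genes from Apln (0.339) and Bdnf (0.291), and Musk exceeded Apln in 15 of 15 mice. The last 4 genes were Fgf21 (0.171), Il6 (0.161), Gdf15 (0.125) and Lif (0.115). Their ranges overlapped almost fully, Il6 exceeded Gdf15 in only 6 of 15 mice, and the order among them is not established at this depth. Fndc5, Il15, Metrnl and Musk had at least 69 counts in every mouse, whereas the other 6 genes had at most 81 in any mouse.

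**Figure D1:**
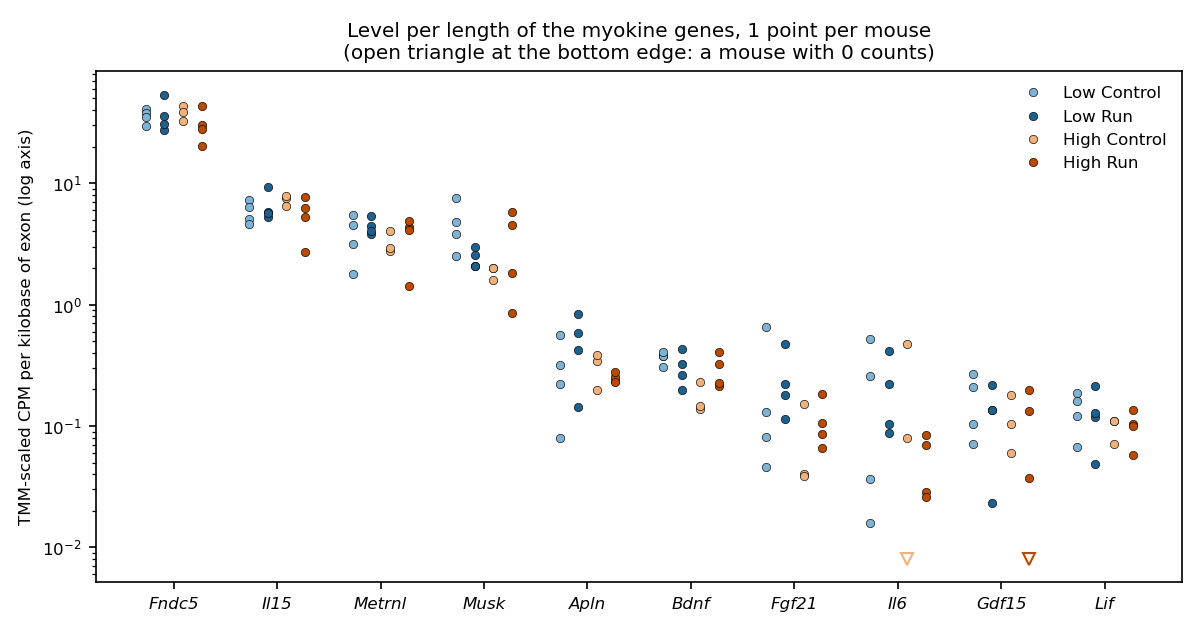
TMM-scaled CPM per kilobase of exon (log axis) of the 10 genes, ordered by their mean over all mice, with 1 point per mouse coloured by group; open triangles at the bottom edge are the mice with 0 counts (Il6 in D25, Gdf15 in D62). Fndc5, Il15, Metrnl and Musk lie well above the other 6 genes in every group.

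The comparisons, 5 in all, were made in 1 edgeR fit: the running response in Low mice, the running response in High mice, their difference (the Frailty × Run interaction), and the frailty difference in sedentary and in run mice. These comparisons share mice, so they are not independent of each other. No member passed FDR 0.1 in any of them, against a background of 0% of all genes tested in Low Run against Low Control, 0% in High Run against High Control, 0% in the interaction, 0% in High Control against Low Control and 0% in High Run against Low Run. At FDR 0.1 DESeq2 called 9 genes of the whole table in the Low running response and 15 in the High running response, and limma voom with sample weights called 0 and 45, while both called 0 in the other comparisons; none of these genes was a member. Everything below is therefore given at an unadjusted p, and counts are to be read against the share of all genes that reached it.

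In Low Run against Low Control, 0 of the 8 testable members had an unadjusted p under 0.05, where 13.4% of all genes did, and 0 had groups without overlap, where 6.93% of all genes did. In High Run against High Control, 1 of 8 (Bdnf, higher) had such a p, against 5.18% of all genes, and 0 of 8 were without overlap, against 7.07%. In the Frailty × Run interaction, 2 of 8 (Musk and Bdnf, both positive) had such a p, against 7.93%. In High Control against Low Control, 2 of 8 (Musk and Bdnf, both lower in High Control) had such a p, against 5.86%, and the same 2 were without overlap, against 10.4%. In High Run against Low Run, 0 of 8 had such a p, against 2.51%, and 1 of 8 (Il6, lower in High Run) was without overlap, against 1.5%. These counts rest on 1 or 2 genes out of 8, and nothing particular to the list is read from them.

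**Figure D2:**
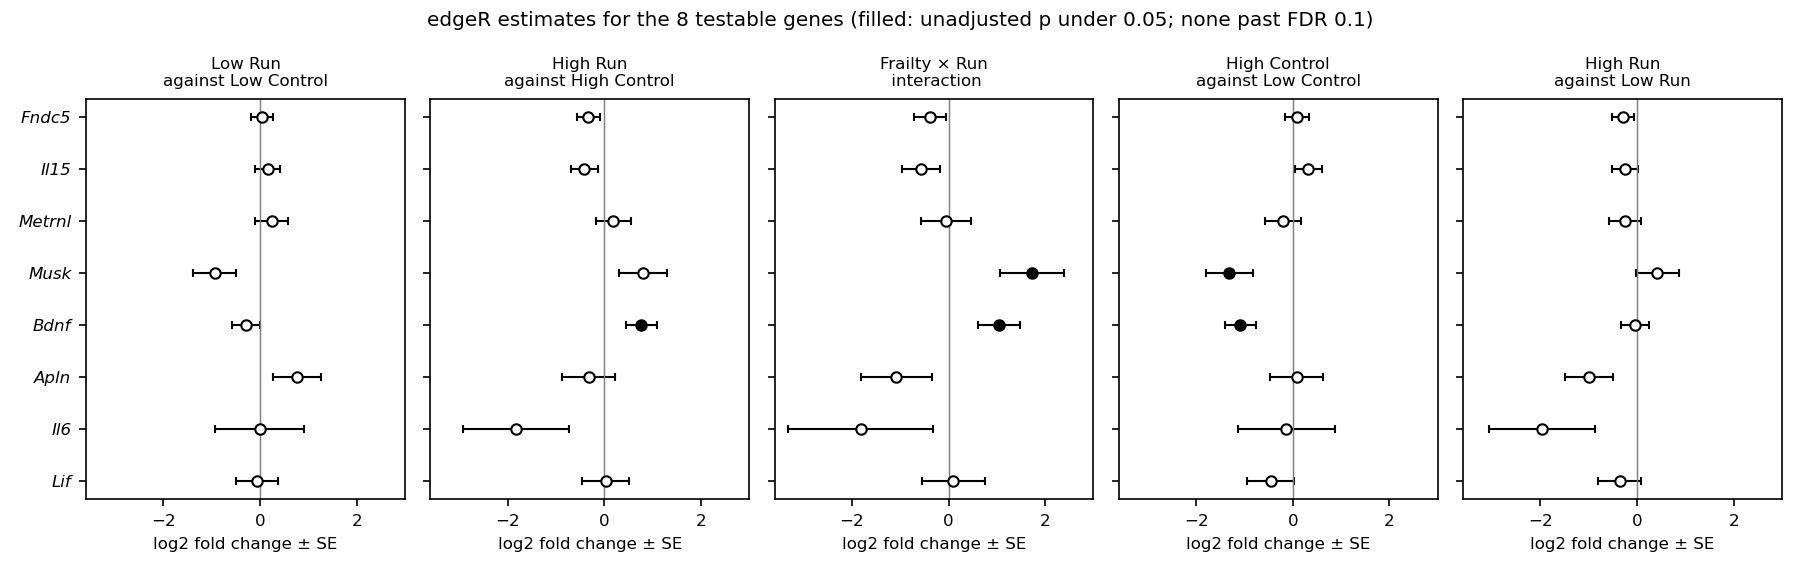
edgeR log2 fold changes with their standard errors (horizontal axis) for the 8 testable genes in the 5 comparisons; filled points have an unadjusted p under 0.05 and none passed FDR 0.1. Musk and Bdnf lie below 0 in High Control against Low Control and above 0 in the interaction, and Il6 has the widest errors.

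Musk (ENSMUSG00000057280, chr4:58285960-58374303, plus strand, GRCm38) encodes the kinase that agrin activates, through the co-receptor LRP4 and the adaptor DOK7, to gather acetylcholine receptors under the nerve ending. Muscle genes of this kind are read by myogenic factors that bind E-boxes, so the 250 bases before its RefSeq start site are shown, at chr4:58285712-58285961 on the plus strand of GRCm38.p6, with each E-box (CANNTG, which reads alike on both strands) in capitals.
Musk: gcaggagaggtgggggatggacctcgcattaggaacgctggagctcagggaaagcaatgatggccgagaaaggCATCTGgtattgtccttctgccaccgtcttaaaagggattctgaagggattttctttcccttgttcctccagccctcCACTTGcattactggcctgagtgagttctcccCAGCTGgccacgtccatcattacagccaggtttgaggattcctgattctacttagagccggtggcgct
The 3 E-boxes begin at positions -177, -100 and -68 from the start site. Of all 32851 RefSeq promoter windows of that length, 12.2% hold at least as many. Among the members, Lif, Apln and a Gdf15 window also hold 3, so the number is not particular to Musk. A match is a description of the letters only, and these data do not bear on binding.

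In sedentary mice, Musk was at 9.46, 28.3, 18 and 14.5 CPM in Low Control and at 6.02, 7.61 and 7.56 CPM in High Control. After running it was at 7.86, 9.69, 11.3 and 7.82 CPM in Low Run and at 21.9, 6.82, 3.22 and 17.2 CPM in High Run. Every Low Control mouse was above every High Control mouse, the 3 High Control mice lay close together, and the High Run group split, with D49 and D62 above all Low Run and High Control mice and D52 and D53 among or below them. The spread was accordingly uneven: the highest mouse was 1.26 times the lowest in High Control, 1.44 times in Low Run, 2.99 times in Low Control and 6.78 times in High Run.

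Mean Musk was 17.6 ± 7.98 CPM (SD, n = 4) in sedentary Low mice and 7.06 ± 0.901 CPM (n = 3) in sedentary High mice. After running the means were 9.17 ± 1.67 CPM (n = 4) in Low and 12.3 ± 8.72 CPM (n = 4) in High mice. High Control was lower than Low Control by a log2 fold change of -1.31 ± 0.49 (SE, edgeR; unadjusted p = 0.0172, adjusted p = 0.704), which is 0.402 times the Low Control level. The exact permutation test on log2(CPM + 0.5) gave p = 0.0571, where 35 arrangements allow 0.0286 at the least. The running responses had opposite signs, -0.94 ± 0.44 in Low mice (unadjusted p = 0.0506, adjusted p = 0.372, edgeR) and 0.80 ± 0.49 in High mice (unadjusted p = 0.122, adjusted p = 0.956, edgeR). The Low response was -0.62 without D9 (unadjusted p = 0.19) and the High response 0.36 without D49 (unadjusted p = 0.455), 1.11 without D53 (unadjusted p = 0.0131) and 0.58 without D62 (unadjusted p = 0.274, edgeR). With single mice left out the Low response ran from -1.14 to -0.62, and it had an unadjusted p under 0.05 in 9 of 23 alternatives. The difference between the responses was 1.73 ± 0.66 (unadjusted p = 0.0185, adjusted p = 0.6, edgeR), and the exact permutation test within the frailty groups gave p = 0.125. The null of that permutation test is no running effect in either group, not equal effects. The last test takes no strength from other genes, and by it neither Musk difference passed 0.05.

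The Musk estimates leaned on single mice. Without Low Control mouse D9 the sedentary difference was -0.99 (unadjusted p = 0.0613, edgeR; 0.0574 without D62 as well) and without High Control mouse D23 it was -1.21 (unadjusted p = 0.0571). The interaction was 1.31 without High Run mouse D49 (unadjusted p = 0.0532), 1.41 without D9 (unadjusted p = 0.0453) and 1.19 without both D9 and D62 (unadjusted p = 0.0876), and limma voom with sample weights put it at 0.95 (unadjusted p = 0.0831). Direction held in every one of these fits.

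**Figure D3:**
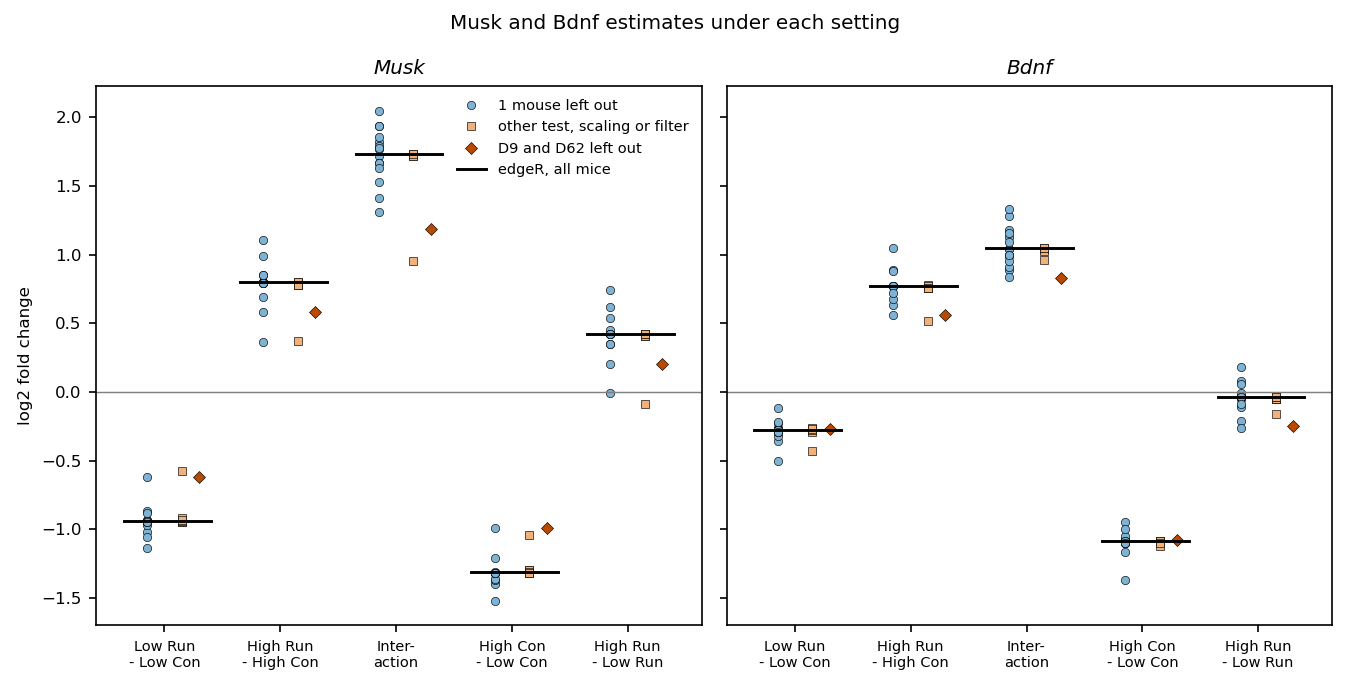
log2 fold changes (vertical axis) of Musk and Bdnf in the 5 comparisons under each setting; the black line is edgeR on all mice, circles leave out 1 mouse, squares change the test, scaling, filter or samples in the fit, and diamonds leave out D9 and D62. The Musk interaction ranges down to 0.95, while Bdnf in High Control against Low Control stays between -1.37 and -0.95.

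The partners of Musk were listed with the receptors of the other members, and are named here after their values were seen, as are all receptors below other than Il6ra, Il6st, Lifr and Il15ra. Dok7, the adaptor, was at 22.5 to 37.5 CPM in Low Control and 15.7 to 22.2 CPM in High Control, a log2 difference of -0.64 ± 0.20 (unadjusted p = 0.00565, edgeR), without overlap. Agrn, the nerve- and muscle-derived activator, differed there by -0.42 ± 0.29 and Lrp4, the co-receptor, by -0.22 ± 0.33, with unadjusted p = 0.177 and 0.51 by edgeR. In the interaction Dok7 was at 0.45 ± 0.27, Agrn at 0.83 ± 0.40 and Lrp4 at 0.16 ± 0.45, and none had an unadjusted p under 0.05. None of these 3 genes passed FDR 0.1.

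Of 9 markers of denervated fibres and the endplate, 6 had an unadjusted p under 0.05 in the High running response, where 5.18% of all genes did, and none passed FDR 0.1. All 6 were higher in High Run, and the list median was 0.69 beside 0.05 over all genes. Without D9 and D62 the count was 4, against 6.85% of all genes, and the median 0.66. Their summed level was 177 to 257 CPM in High Control, 221 to 429 in High Run, 212 to 400 in Low Control and 243 to 438 in Low Run, and no gene of the list was at 0 in any mouse. Slow fibre markers had 2 of 4 genes higher with such a p in the same comparison, Tnni1 and Tnnt1 (median 0.63; 1 of 4 without D9 and D62), at a summed 1050 to 1660 CPM in High Control and 1290 to 3130 in High Run, with no gene at 0. The fast myosin gene Myh4 was lower there (-0.44 ± 0.19, unadjusted p = 0.0302, edgeR), the 1 of 5 myofibre markers with such a p, and 0 of 5 had one without D9 and D62. Myh4 was also lower in the Low response (-0.48 ± 0.17, unadjusted p = 0.0133, edgeR), and its interaction was 0.04. In High Control against Low Control, 2 of the 9 endplate markers were lower with such a p (median -0.48, against 5.86% of all genes). Without D9 and D62 it was 1 of 9, against 3.8%. In the interaction 0 of 9 had such a p (median 0.48). In the Low response 0 of 9 had such a p and the median was 0.30, with 8 of 9 positive, while Musk was at -0.94. Of 4 Schwann cell markers, 3 had such a p in the interaction, all positive (median 0.98, against 7.93% of all genes), and without D9 and D62 none of the 4 did (0 of 4, median 0.58, against 4.42%). In High Run against Low Run, where Musk was at 0.42 ± 0.44, 3 of the 4 were higher with such a p (median 0.80, against 2.51%). Without D9 and D62, 2 of these 4 markers were (median 0.46, against 2.73%). Their summed level was 125 to 140 CPM in High Control, 90.3 to 284 in High Run, with D62 the highest, 89.7 to 176 in Low Control and 61.4 to 123 in Low Run. Their part in the Musk differences was not tested.

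The genes most like Musk over the 15 mice, among all genes that passed the filter, were Nbr1 (Pearson r = 0.927, Spearman rho = 0.921), Usp31 (r = 0.906, rho = 0.871) and Ptprg (r = 0.905, rho = 0.811). Nbr1 encodes a selective autophagy receptor. Leaving out D9 and D53, the mice farthest from the median of Musk, r with Nbr1 was 0.908. The 15 points share the libraries and their scaling, and these are the highest correlations among all genes that passed the filter, so they are a description only.

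Bdnf (ENSMUSG00000048482, chr2:109674700-109727007, plus strand), brain-derived neurotrophic factor, is a neurotrophin that supports motor neurons and is also made in muscle. It was at 2.34, 2.36, 2.52 and 1.89 CPM in Low Control and at 1.43, 0.849 and 0.910 CPM in High Control. After running it was at 2.69, 1.23, 1.62 and 2.01 CPM in Low Run and at 1.32, 1.39, 2.01 and 2.55 CPM in High Run. All 4 Low Control mice were above all 3 High Control mice, and the run groups covered nearly the same range as each other. The counts behind these values were 19 to 81 per mouse. Bdnf overlaps an annotated antisense gene, Gm45346, and counting was by strand.

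The sedentary frailty difference of Bdnf was -1.09 ± 0.32 on the log2 scale (unadjusted p = 0.00404, adjusted p = 0.704, edgeR), or 0.469 times the Low Control level, from 2.28 ± 0.270 CPM (SD, n = 4) to 1.06 ± 0.319 (n = 3). The exact permutation test gave p = 0.0286, the smallest that 3 against 4 mice can give. The alternatives are not independent checks here: the stricter FDR repeats the main fit, and leaving out a single run mouse keeps every sedentary mouse. The sedentary difference kept an unadjusted p under 0.05 in 23 of 23 alternatives, with values from -1.37 to -0.95, and was -1.08 without D9 and D62. In none of them did it pass FDR 0.1, and adjusted p ranged from 0.362 to 1.

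Running went with higher Bdnf in High mice, by 0.77 ± 0.32 (unadjusted p = 0.0295, adjusted p = 0.956, edgeR), and with -0.28 ± 0.29 in Low mice (unadjusted p = 0.352, edgeR). The Low value ran from -0.5 to -0.12 with single mice left out. High Run (1.82 ± 0.580 CPM, n = 4) overlapped High Control, since D49 and D52 were below D23, and the exact permutation test of the High response gave p = 0.171. The interaction was 1.05 ± 0.43 (unadjusted p = 0.0275, adjusted p = 0.6, edgeR). The exact permutation test within the frailty groups gave p = 0.031, against a null of no running effect in either group rather than equal effects. The interaction of Bdnf also moved with the mice left out. It was 0.83 without D9 and D62 (unadjusted p = 0.0795), 0.84 without D62 alone (unadjusted p = 0.0621), 0.91 without D25 (unadjusted p = 0.0741), 0.95 without D67 (unadjusted p = 0.0648) and 0.89 without D61 (unadjusted p = 0.0512). The High response had an unadjusted p under 0.05 in 16 of 23 alternatives, with values from 0.52 to 1.05. It was 0.56 without D62 (unadjusted p = 0.103), 0.56 without D9 and D62 (unadjusted p = 0.11), 0.63 without D25 (unadjusted p = 0.111), 0.68 without D67 (unadjusted p = 0.0927) and 0.72 without D53 (unadjusted p = 0.0566). It was 0.52 with voom (unadjusted p = 0.0732) and 0.76 with only the High groups in the fit (unadjusted p = 0.0524). The interaction and the sedentary difference share the High Control and Low Control mice, so the low High Control values enter both.

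Of the receptors of BDNF, Ntrk2, which encodes TrkB, differed by between -0.18 and 0.20 over the 5 comparisons, with no unadjusted p under 0.05. Ngfr, the low-affinity neurotrophin receptor, was at 1.53 to 2.40 CPM in High Control and 1.78 to 7.46 in High Run, a log2 difference of 1.10 ± 0.42 (unadjusted p = 0.019, edgeR). The highest value was in D62, and without D9 and D62 the difference was 0.58 ± 0.35 (unadjusted p = 0.12). Ntf5, another ligand of TrkB, had the opposite pattern to Bdnf: it was at 2.19 to 5.48 CPM in Low Control against 6.29 to 7.61 CPM in High Control, and after running at 4.36 to 6.78 CPM in Low against 2.11 to 5.98 CPM in High mice. Its interaction was -1.31 ± 0.44 (unadjusted p = 0.00974, edgeR), or -0.87 ± 0.30 without D9 and D62 (unadjusted p = 0.0122), and its sedentary groups did not overlap. Ntf5 was named after its values were seen, and none of these 3 genes passed FDR 0.1.

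Red cell and macrophage markers also had unadjusted p under 0.05 in these comparisons, and none passed FDR 0.1. The erythroid list had 3 of 3 genes with an unadjusted p under 0.05 in High Control against Low Control (lower, median -1.51), in High Run against High Control (higher, median 2.13) and in the interaction (positive, median 3.31), against 5.86%, 5.18% and 7.93% of all genes. The count was 3 of 3 in each of them without D9 and D62 too, against 3.8%, 6.85% and 4.42% of all genes. In the Low response 0 of 3 had such a p with all mice (median -1.19, against 13.4%). Without D9 and D62 it was 2 of 3, lower (median -1.42, against 7.33%). The list also had 3 of 3 higher in High Run against Low Run (median 1.76), with and without those mice, against 2.51% and 2.73% of all genes. In that comparison Bdnf was at -0.04 ± 0.29 and Musk at 0.42 ± 0.44. Summed levels of the erythroid list were 287 to 457 CPM in High Control, 355 to 3550 in High Run, 460 to 2200 in Low Control and 227 to 760 in Low Run. Of 5 macrophage markers 2, Cd68 and C1qa, were higher with such a p in High Run against High Control (4 of 5 without D9 and D62, against 6.85% of all genes), at a summed 35.4 to 62.5 CPM in High Control and 48.8 to 119 in High Run. In the interaction 0 of 5 had such a p with all mice and 3 of 5, all positive, without D9 and D62 (median 0.80, against 4.42% of all genes). In High Control against Low Control 0 of 5 had one with all mice and 1, lower, without those mice (against 3.8%). In the Low response 1 of 5, C1qa, was higher with all mice (against 13.4%) and 0 of 5 without them. No gene of either list was at 0 in any mouse. Their part in the Bdnf and Musk differences was not tested. The genes most like Bdnf were Gm43923 (r = 0.843), Cstb (r = 0.825) and Myl12a (r = 0.816).

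**Figure D4:**
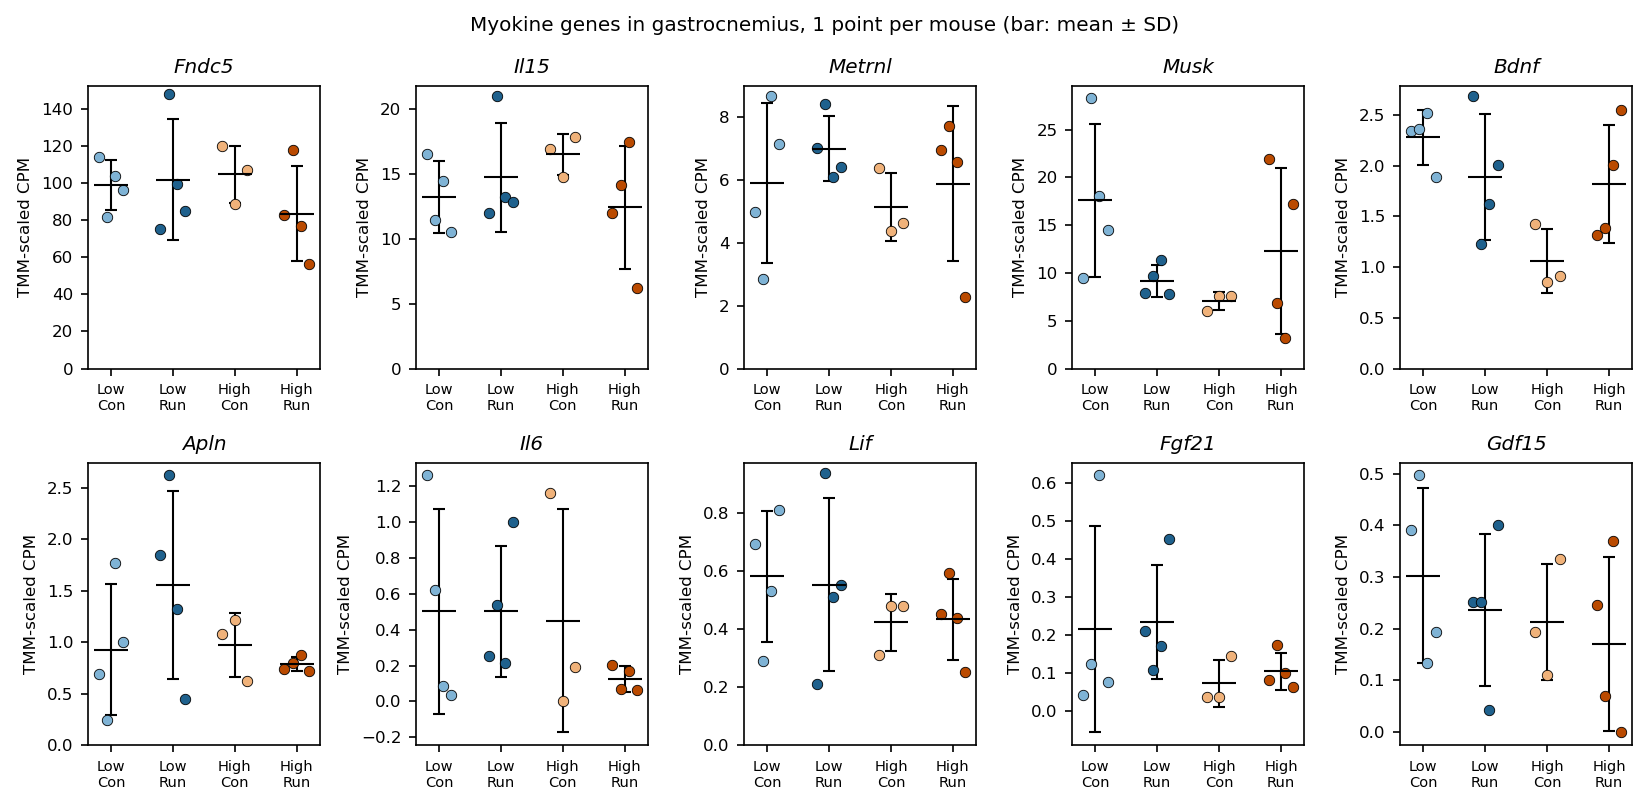
TMM-scaled CPM (vertical axis, a separate scale for each gene) of the 10 genes in each mouse by group, with group mean ± SD as the bar. Musk and Bdnf have their lowest group mean in High Control, Il6 is low in all 4 High Run mice, and the groups of the other genes overlap in every comparison drawn.

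Il6 (ENSMUSG00000025746, chr5:30013114-30019981, plus strand), the cytokine that contracting muscle is best known for releasing, was a rare transcript at this time. Low mice had 29, 15, 2 and 1 counts when sedentary and 6, 15, 5 and 20 after running. High mice had 30, 0 and 4 counts when sedentary and 5, 2, 5 and 2 after running. On the CPM scale these were 1.26, 0.621, 0.0885 and 0.0386 in Low Control and 0.252, 0.540, 0.213 and 1.00 in Low Run. In High Control they were 1.16, 0 and 0.191, and in High Run 0.206, 0.0696, 0.168 and 0.0630. All 4 High Run mice were low and within 3.27 times of each other, while each of the other groups held at least 1 mouse near or above 1 CPM. The 0 in D25 allows a level of up to 0.111 CPM (3 counts), which bounds counting error only.

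Every High Run mouse was below every Low Run mouse in Il6, although the nearest pair, D49 at 0.206 and D66 at 0.213 CPM, both had 5 counts. The log2 fold change was -1.96 ± 1.10 (unadjusted p = 0.0845, adjusted p = 0.999, edgeR), or 0.257 times the Low Run level, and the exact permutation test gave p = 0.0286, the smallest that 4 against 4 mice can give. The other comparisons did not separate the groups. High Run against High Control was -1.83 ± 1.10 (unadjusted p = 0.123) and turned to 0.48 without D23, the mouse with 30 counts. The running response in Low mice was -0.01 ± 0.93, with values from -0.56 to 0.98 when single mice were left out.

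The gene whose pattern was most like Il6 was Socs3, the feedback inhibitor that STAT3 induces downstream of gp130 (r = 0.909, rho = 0.896 over 15 mice; r = 0.897 without D8 and D23). The chemokine genes Cxcl1 (r = 0.862) and Cxcl2 (r = 0.85) came next. Socs3 was at 24.3 CPM in D8, 27.8 in D68, 16.1 in D61 and 15.4 in D23, the 4 highest values, and those mice were among the 5 highest for Il6. In D25, with 0 counts of Il6, it was at its lowest, 4.98 CPM. Of 10 gp130-STAT3 targets, Socs3 was lower in High Run than in Low Run by -0.99 ± 0.42 (unadjusted p = 0.0326, edgeR), and 3 of the 10 were lower with such a p, where 2.51% of all genes had one. The list median was 0.15. Without D9 and D62 the count was 2 (against 2.73% of all genes), the median -0.07 and Socs3 at -0.89 ± 0.47 (unadjusted p = 0.0796, edgeR). Bcl3 differed by -0.64 ± 0.26 (unadjusted p = 0.0271), while Stat3 (0.02 ± 0.20) and Pim1 (0.27 ± 0.47) had no such p. In High Control against Low Control, 2 of the 10 were lower with such a p, where 5.86% of all genes had one, and the median was -0.55, with Stat3 at -0.54 ± 0.21 (unadjusted p = 0.0233, edgeR). Without D9 and D62, where the all-gene share was 3.8%, the count was 1, the median -0.34 and Stat3 at -0.41 ± 0.21 (unadjusted p = 0.0727).

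**Figure D5:**
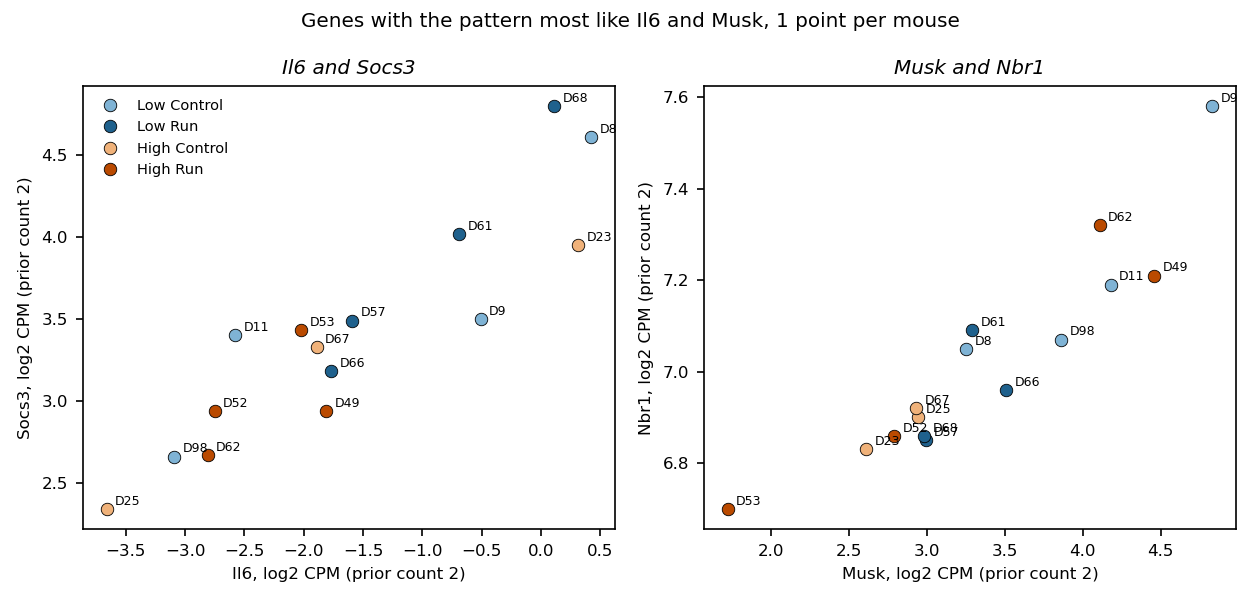
log2 CPM of Il6 against Socs3 (left) and of Musk against Nbr1 (right), 1 point per mouse, coloured by group and named. Points lie along a rising band in both panels, with D8, D68 and D23 at the top for Il6 and D9 at the top for Musk.

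Neutrophil markers ran from 2.73 to 419 summed CPM over the 15 mice, with the highest value in D68 and 1 gene of 5 at 0 in some mice. In High Run against Low Run 0 of 5 had an unadjusted p under 0.05 (median -1.86). Their part in the Il6 values was not tested.

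The receptor genes of Il6 showed the 2 libraries that stood apart. Il6ra, the ligand-binding subunit, was at 119 CPM in D9 and 133 CPM in D62, and between 9.07 and 28.0 in the other 13 mice. Its interaction of 3.25 ± 1.20 (unadjusted p = 0.0156, edgeR) was 0.27 ± 0.43 without both (unadjusted p = 0.536). Il6st, which encodes gp130, was lower in Low Run (152 to 202 CPM) than in Low Control (194 to 380) by -0.52 ± 0.21 (unadjusted p = 0.028, edgeR), with D9 again the highest, and the difference was -0.28 ± 0.18 without D9 and D62 (unadjusted p = 0.142). Its interaction was 0.70 ± 0.32 (unadjusted p = 0.0421, edgeR). Of 18 testable receptors and partners, 3 (Il6ra, Il6st and Klb) had a positive interaction with such a p (against 7.93% of all genes). Without D9 and D62 only 1 gene did (against 4.42%), so Il6st and Klb did not both keep theirs.

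Lif (ENSMUSG00000034394, chr11:4257557-4272514, plus strand), leukaemia inhibitory factor, is a gp130 cytokine that promotes satellite cell growth. It was at 0.694, 0.290, 0.531 and 0.811 CPM in Low Control and at 0.210, 0.937, 0.511 and 0.551 CPM in Low Run. It was at 0.309, 0.480 and 0.479 CPM in High Control and at 0.453, 0.591, 0.436 and 0.252 CPM in High Run. The 4 groups overlapped, and log2 differences ran from -0.46 ± 0.48 (High Control against Low Control) to 0.10 ± 0.65 (interaction). With single mice left out, High Control against Low Control gave -0.69 to -0.25 for Lif. Its specific receptor subunit, Lifr, varied little, from 49.6 to 70.4 CPM, and had no unadjusted p under 0.05.

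Fndc5 (ENSMUSG00000001334, chr4:129136999-129144593, plus strand), the irisin precursor, was the most abundant member. It was at 114, 82.1, 104 and 96.3 CPM in Low Control and at 75.3, 148, 99.4 and 85.0 CPM in Low Run. It was at 120, 89.1 and 107 CPM in High Control and at 83.1, 118, 76.8 and 56.3 CPM in High Run. All 4 groups overlapped. Its depth of 1696 to 4119 counts per mouse makes it the best measured of the 10, and its log2 differences stayed within -0.38 ± 0.33 (interaction) and 0.09 ± 0.25 (High Control against Low Control), none with an unadjusted p under 0.05. Single mice moved them: the interaction was -0.14 without D61 and -0.59 without D52, and the High response -0.19 without D62 and -0.56 without D52 (unadjusted p = 0.0339, edgeR). High Run against Low Run was -0.29 ± 0.23, and -0.51 without D52 (unadjusted p = 0.039).

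Fndc5 is a target of the coactivator PGC-1alpha, and Ppargc1a, which encodes it, differed by between -0.21 and -0.09 over the comparisons without an unadjusted p under 0.05. Among upstream regulators, Ppara, the fatty acid receptor PPARalpha, had such a p in 3 comparisons. Its log2 differences were -0.88 ± 0.35 in Low Run against Low Control (unadjusted p = 0.0226, edgeR), -0.84 ± 0.38 in High Control against Low Control (unadjusted p = 0.0433) and 1.33 ± 0.51 in the interaction (unadjusted p = 0.0201). Without D9 and D62 the sedentary difference was -0.81 ± 0.42 (unadjusted p = 0.0739), and the others kept such a p. The other 7 regulators, Esrra and Hif1a included, had none. The integrin genes Itgav and Itgb5, whose product pair binds irisin, had none either.

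Il15 (ENSMUSG00000031712, chr8:82331632-82403222, minus strand) encodes a cytokine that acts on T cells, NK cells and muscle growth. It was at 16.5, 11.4, 14.4 and 10.5 CPM in Low Control and at 12.0, 21.0, 13.2 and 12.8 CPM in Low Run. It was at 16.9, 14.7 and 17.8 CPM in High Control and at 12.0, 14.1, 17.4 and 6.17 CPM in High Run. The groups overlapped, with D61 far above the other Low Run mice and D62 the lowest of all mice. The largest log2 difference was the interaction, -0.57 ± 0.39 (unadjusted p = 0.162, adjusted p = 0.631, edgeR), and the High running response of -0.41 ± 0.28 was -0.19 without D62 (unadjusted p = 0.419) and -0.62 without D53 (unadjusted p = 0.048). With single mice left out the interaction ran from -0.78 to -0.34, and the other settings gave -0.58 to -0.28.

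Il15ra, the subunit that presents IL-15, was lower in High Control (15.3 to 16.4 CPM) than in Low Control (15.4 to 34.9) by -0.49 ± 0.23 (unadjusted p = 0.0441, edgeR), with the ranges overlapping. Without D9, the highest mouse, and D62 the difference was -0.20 ± 0.15 (unadjusted p = 0.205). Il2rb and Il2rg, the subunits shared with the IL-2 receptor, are chiefly lymphocyte genes. Il2rb was 5.12 CPM in D61 and at most 1.13 in the other mice, and its Low running response of 2.18 ± 0.82 (unadjusted p = 0.0171, edgeR) includes that mouse. The other Low Run mice were at 0.504, 0.256 and 0.351 CPM of Il2rb, beside 0.26 to 0.398 CPM in Low Control. Il2rg was higher in Low Run than in Low Control by 1.12 ± 0.37 (unadjusted p = 0.00869, edgeR) and in High Run than in High Control by 0.90 ± 0.41 (unadjusted p = 0.0448), and kept such a p in both without D9 and D62. Of 2 testable T and NK cell markers, 2 were higher with such a p in the Low response, against 13.4% of all genes (1 without D9 and D62, against 7.33%), and 1, Cd3e, in the High response, against 5.18%. T and NK cell markers summed to 6.20 CPM in D61, the highest of the 15 mice, and their part in the Il15, Il2rb and Il2rg values was not tested. Il15 and Fndc5 went together most closely of the 28 pairs of testable members (r = 0.785, rho = 0.643), and r was 0.441 without D61 and D62. Of the 28 pairs 15 had a positive r, the lowest was -0.549 (Il15 and Musk) and the median was 0.126.

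Metrnl (ENSMUSG00000039208, chr11:121701544-121716306, plus strand), meteorin-like, is released after exercise and acts on macrophages and fat. It was at 4.99, 2.86, 8.67 and 7.14 CPM in Low Control and at 7.02, 8.43, 6.10 and 6.42 CPM in Low Run. It was at 6.37, 4.39 and 4.64 CPM in High Control and at 6.96, 7.72, 6.58 and 2.27 CPM in High Run. The lowest mice of all, D9 and D62, were the 2 that stood apart on the first principal component, and the groups overlapped. Log2 differences lay between -0.25 ± 0.34 (High Run against Low Run) and 0.24 ± 0.34 (Low Run against Low Control). The latter ran from 0.0 to 0.48 with single mice left out.

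Without D9 and D62 the interaction of Metrnl turned from -0.05 to 0.45 (unadjusted p = 0.143, edgeR). Its sign was reversed in 7 of 22 alternatives, and single mice left out gave -0.29 to 0.22, so its sign is not set. The genes most like Metrnl, Arhgap18 (r = 0.917) and Ephx3 (r = 0.915), rested on D9 and D62, since r was 0.658 and 0.656 without them. Its receptor gene Kit had no unadjusted p under 0.05. Of 18 testable receptors and partners, 2 were higher and 2 lower with such a p in Low Run against Low Control, where 13.4% of all genes had one, and 2 and 1 without D9 and D62, where 7.33% did.

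Apln (ENSMUSG00000037010, chrX:48025146-48034853, minus strand) encodes apelin, a peptide that acts on the receptor APLNR of vessels and muscle. It was at 0.694, 0.248, 1.77 and 1.00 CPM in Low Control and at 1.85, 2.63, 1.32 and 0.451 CPM in Low Run. It was at 1.08, 1.22 and 0.622 CPM in High Control and at 0.741, 0.800, 0.873 and 0.724 CPM in High Run. The High Run mice were the tightest group, within 1.21 times of each other, and lay inside the range of every other group. Apln was lower in High Run than in Low Run by -1.0 ± 0.50 (unadjusted p = 0.0634, adjusted p = 0.999, edgeR; 0.499 times the Low Run level), and higher in Low Run than in Low Control by 0.76 ± 0.50 (unadjusted p = 0.147, edgeR). The latter was 0.38 without D61 (unadjusted p = 0.479), 0.44 without D9 (unadjusted p = 0.354) and 1.26 without D11 (unadjusted p = 0.0282). The High Run against Low Run value ran from -1.30 without D68 to -0.63 without D61, and had an unadjusted p under 0.05 in 6 of 22 alternatives. Aplnr, its receptor, was at 1.93 to 10.6 CPM in Low Run and 0.661 to 6.05 in High Run, with no such p.

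Fgf21 (ENSMUSG00000030827, chr7:45613886-45615490, minus strand), a stress-induced hormone made mostly by liver, had 1, 3, 14 and 2 counts in Low Control and 5, 3, 4 and 9 in Low Run. It had 1, 1 and 3 counts in High Control and 2, 5, 3 and 2 in High Run. Most mice were at a few counts and D11 and D68 were the highest. As CPM the group means were 0.216 ± 0.271 (SD, n = 4), 0.235 ± 0.150 (n = 4), 0.0731 ± 0.0611 (n = 3) and 0.105 ± 0.0485 (n = 4). With too few counts for the fit across genes, Fgf21 was tested alone, and High Run against Low Run gave a difference of -0.26 in mean log2(CPM + 0.5), a scale that understates changes of low genes (exact permutation p = 0.0857). A difference was not detectable at this depth.

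Gdf15 (ENSMUSG00000038508, chr8:70629393-70632456, minus strand), a stress hormone that acts on the hindbrain receptor GFRAL, had 9, 12, 3 and 5 counts in Low Control and 6, 7, 1 and 8 in Low Run. It had 5, 3 and 7 counts in High Control and 6, 2, 11 and 0 in High Run. All groups overlapped, and the 0 in D62 allows up to 0.0945 CPM. Group differences in mean log2(CPM + 0.5) lay between -0.16 and 0.01, and the smallest exact permutation p was 0.457. Gfral was at 0 in all 15 mice. Klb, the FGF21 co-receptor, had only 0 to 16 counts per mouse, and every Low Run mouse was below 3 counts (0.108 to 0.15 CPM in that group). It was at 0.124 to 0.618 CPM in Low Control and 0 to 0.1 in Low Run, a log2 difference of -2.99 ± 0.79 that depends on the prior count of the fit (unadjusted p = 0.00159, edgeR), without overlap. In High Run against High Control it was at -0.52 ± 0.66 (unadjusted p = 0.448), in the interaction at 2.48 ± 1.0 (unadjusted p = 0.0311) and in High Run against Low Run at 2.22 ± 0.82 (unadjusted p = 0.0156, edgeR). Adipocyte markers had 2 of 4 genes lower with such a p in Low Run against Low Control (median -0.81), where 13.4% of all genes had one. Without D9 and D62, 4 of 4 of these markers were lower with such a p, where 7.33% of all genes had one. Their summed level was 72.8 to 87.7 CPM in Low Control and 38.7 to 57.2 CPM in Low Run, without overlap and with no gene at 0, and their part in the Klb difference was not tested.

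The integrated stress response genes that go with Fgf21 and Gdf15 were tested in the same fit. Of 15 genes, 0 had an unadjusted p under 0.05 in 4 of the comparisons and 1 had one in the interaction, Trib3 at 1.15 ± 0.53 (unadjusted p = 0.045, edgeR), or 0.55 ± 0.38 without D9 and D62 (unadjusted p = 0.173). All-gene shares were 2.51% to 13.4%, so counts of 0 or 1 say little about this list. Without those mice 1 of 15 had such a p in the Low response, lower (against 7.33% of all genes). In the High response without them 1 had one (against 6.85%), Trib3 at 0.75 ± 0.28 (unadjusted p = 0.0167, edgeR). Atf4 was at 1.01 ± 0.58, Ddit3 at -0.26 ± 0.42 and Atf3 at -0.96 ± 0.65 in the interaction, without such a p. Medians of the list ran from -0.19 to 0.07 over the 5 comparisons.

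Other muscle-secreted factors gave a comparison for the members: of 45 testable genes, 1 was higher and 5 lower with an unadjusted p under 0.05 in Low Run against Low Control, 1 and 3 in High Run against High Control, 1 and 3 in the interaction, 1 and 1 in High Control against Low Control, and 0 and 0 in High Run against Low Run. The all-gene shares with such a p, in the same order, were 13.4%, 5.18%, 7.93%, 5.86% and 2.51%. Without D9 and D62 the Low response had 1 higher and 2 lower, the High response 1 and 2, and the interaction 0 and 1, where the all-gene shares were 7.33%, 6.85% and 4.42%. None passed FDR 0.1. Ostn, which encodes musclin, was at 30.7 CPM in D9 and 32.1 in D62 and at 121 to 449 in the other mice. Mstn, which encodes myostatin, Fstl1 and Erfe had no such p in any comparison. No test set the members against these factors.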

How the data were processed

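Gene-level counts deposited by the authors were read as raw counts, 1 column per mouse and none without a sample. Per the submitters' notes and the study's methods, polyA libraries were aligned to mm10 with STAR 2.7.9a and uniquely aligned proper pairs were counted on the same strand with featureCounts against Ensembl build 100. Notes and methods name different Subread versions (2.0.3 in the notes). A second, variance-stabilised table was not used here. Symbols, coordinates and exon lengths came from GENCODE M21 (GRCm38), which named 55104 of 55450 genes; promoters came from RefSeq, with windows for 9 of the 10 members (none for Il15).

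Counts were scaled by TMM and filtered with filterByExpr, and edgeR 4.0.16 (quasi-likelihood test, 1 mean per group, 15 mice in 1 fit, Benjamini-Hochberg over 16920 genes, FDR 0.1) under R 4.3.3 gave each comparison, after it was tested on simulated data. The study's own test, DESeq2 (1.42.0 here), and limma voom (3.58.1) were alternatives, with other scaling, filters and mice left out. A stricter FDR of 0.05 was counted as an alternative too and repeats the fold changes and unadjusted p of the main fit. Leaving out a mouse of another group keeps every mouse compared, so counts of alternatives are not counts of independent checks. Leaving D9 and D62 out of the list results was chosen after seeing the data. CPM are TMM-scaled. Two-sided exact permutation tests on log2(CPM + 0.5) used 70 arrangements for 4 against 4 mice, 35 for 3 against 4 and 2450 for the interaction, and are unadjusted. For the interaction, Run and Control were shuffled within each frailty group. Its null is therefore no running effect in either group, and an effect in a single group can also give a low p. Mouse numbers name separate animals. Depth of 19395125 to 30699216 counts sets counting error only.

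Named genes were all members, the first 4 genes of each list, any list gene past FDR 0.1 and the 3 genes with the highest Pearson correlation of log2 CPM (prior count 2) with each member; other names are said to be chosen after their values were seen. The lists were receptors and partners, gp130-STAT3 targets, integrated stress response genes, upstream regulators, other muscle-secreted factors (1 of 50, Chi3l1, matched no symbol) and cell type markers. Members and lists were chosen with earlier results of these data known.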

Additional observations from a re-analysis of the deposited data

Results flagged for a closer look

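Of 30 sets of 4 mice looked at (10 genes in the groups of 4), 2 held a mouse whose gap to the next was over 0.829 of the whole range, and chance alone gives about 1 in 20. Il15 in Low Run was 21.0 CPM in D61, with the other 3 mice between 12.0 and 13.2 CPM. Fgf21 in Low Control was 0.619 CPM in D11 (14 counts), with the others at 1 to 3 counts.

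The running response differed between Low and High mice, by the interaction test at an unadjusted p, for Bdnf (log2 1.05, unadjusted p = 0.0275, edgeR) and Musk (log2 1.73, unadjusted p = 0.0185, edgeR). Neither passed FDR 0.1 (adjusted p = 0.6 for both), and the exact permutation test gave p = 0.031 for Bdnf and p = 0.125 for Musk. The null of the permutation test is no running effect in either frailty group, not equal effects.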

How the results depend on the processing

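No member passed FDR 0.1 under any of the 23 alternatives that could be run (lowest adjusted p = 0.268, edgeR, DESeq2 or limma voom), and 46 of 895 alternative fitted values had the opposite sign, in 17 of 40 results. No paired analysis was possible because each mouse ID occurs once. The number of members with an unadjusted p under 0.05 in the Low running response (0 in the main analysis) was 1 with RLE scaling, DESeq2, no filter or only the groups compared, and 0 to 1 with single mice left out. In the High running response (1) it was 3 with no filter, 0 with voom, 0 with only the groups compared, 0 without D9 and D62, and 0 to 2 with single mice left out. In the interaction (2) it was 1 with voom, 0 without D9 and D62, and 1 to 3 with single mice left out, and in High Control against Low Control (2) it was 1 without D9 and D62 and 1 to 2 with single mice left out. In High Run against Low Run (0) it was 1 with DESeq2, 2 with no filter, 1 with only the groups compared, and 0 to 1 with single mice left out. The share of all genes with such a p moved with the setting too, so these counts are no result about the members: without D9 and D62 it was 7.33% in the Low response, 6.85% in the High response, 4.42% in the interaction, 3.8% in High Control against Low Control and 2.73% in High Run against Low Run. In the same order it was 9.42%, 4.84%, 7.31%, 5.43% and 3.91% with no filter, 8.19%, 13.6%, 10.4%, 9.33% and 5.08% with voom, and 7.47%, 3.23%, 4.72%, 3.53% and 1.67% with DESeq2. It was 13.6% with RLE scaling in the Low response, and 11.4%, 4.91% and 1.98% with only the groups compared in the Low response, the High response and High Run against Low Run. With single mice left out it was 5.03% to 17.2%, 3.37% to 6.77%, 4.66% to 14.1%, 2.63% to 10.7% and 1.82% to 5.84%. Under voom the sign turned for Il6 in the Low response (1.09), Metrnl in the interaction (0.42), Apln in High Control against Low Control (-0.2) and Musk in High Run against Low Run (-0.09). Without D9 and D62 it turned for Il6 (0.1) and Fndc5 (-0.05) in the Low response, Metrnl in the interaction (0.45) and in High Run against Low Run (0.01), and Apln in High Control against Low Control (-0.24). With single mice left out, values of both signs were found in the Low response for Il6 (-0.56 to 0.98), Il15 (-0.07 to 0.29), Fndc5 (-0.2 to 0.16) and Lif (-0.47 to 0.21), and in the High response for Il6 (-2.43 to 0.48) and Lif (-0.16 to 0.22). The same held in the interaction for Il6 (-2.81 to 0.49), Metrnl (-0.29 to 0.22) and Lif (-0.17 to 0.5), and in High Control against Low Control for Il6 (-2.45 to 0.86), Fndc5 (-0.01 to 0.2), Metrnl (-0.44 to 0.03) and Apln (-0.24 to 0.58). It held in High Run against Low Run for Metrnl (-0.42 to 0.01), Bdnf (-0.26 to 0.18), Lif (-0.63 to 0.03) and Musk (-0.01 to 0.74). On the log2(CPM + 0.5) scale it held for Fgf21 (-0.05 to 0.32) and Gdf15 (-0.23 to 0.02) in the Low response and for Gdf15 in the High response (-0.24 to 0.02) and the interaction (-0.13 to 0.14). The cause was not tested. In all, 23 of 40 results kept their sign in every alternative run. Bdnf in High Control against Low Control and Musk in the interaction were among them, as were results with no unadjusted p under 0.05 in the main fit. Counts of 0 to 30 per mouse limit Il6, Lif, Fgf21 and Gdf15.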
